A study of Mus musculus with 3 samples.

Results

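The genes examined here encode the enzymes that write, maintain and remove DNA methylation: Dnmt1, Dnmt3a, Dnmt3b, Dnmt3l, Uhrf1, Tet1, Tet2, Tet3 and Tdg. They were chosen by name and function and are 9 of the 22380 protein-coding genes of GENCODE vM1 (mm9). For each gene, every CpG between 5000 bp upstream of the gene start and the gene end was taken if it had over 10 reads. This gave 768 of 970329 CpGs in the wild-type library, 648 of 814188 in the Dnmt3a KO library and 315 of 431923 in the Dnmt TKO library. WT and Dnmt3a KO shared 500 of these CpGs out of 631561 shared in the genome, WT and Dnmt TKO shared 207 of 299007, and 196 were covered in all 3 libraries.

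DNA methylation was measured in mouse embryonic stem (ES) cells, pluripotent cells derived from the early embryo, by reduced-representation bisulfite sequencing (RRBS). In RRBS, DNA is cut with MspI at CCGG, fragments of chosen sizes (here 150 to 250 and 250 to 350 bp) are kept, and bisulfite converts unmethylated cytosines so that they are read as T. The WT and Dnmt3a KO cells were of a mixed 129-C57Bl/6 strain, and the Dnmt TKO cells of the J1 strain. All cells grew in serum with LIF, WT on feeder cells or gelatine and both mutants on gelatine. Dnmt3a was disrupted in the KO with guide RNAs directed to its exon 7, while Dnmt TKO cells lack the DNA methyltransferases (the labels name no alleles, nor how many clones the KO line comes from). DNA of both fragment sizes went into separate preparations, and the sources used here do not say whether these were pooled into the 1 table that each genotype has. That table is called a library here, so every test below compares libraries, not genotypes, and genotype cannot be told apart from culture or, for Dnmt TKO, from strain. Intervals and tests cover counting error only, and they treat PCR copies and CpGs of the same read as independent. Intervals of differences take their widths from pooled reads, so they are not the error of a mean over CpGs and can be too narrow for it.

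As background, DNMT1 copies methylation onto the new DNA strand after replication, guided by UHRF1, which binds hemimethylated CpGs. DNMT3A and DNMT3B set new methylation, and DNMT3L is a catalytically inactive partner that stimulates them in ES cells and germ cells. TET1, TET2 and TET3 oxidize methylcytosine to hydroxymethylcytosine and further, and TDG excises the further oxidized bases so that repair restores cytosine. Bisulfite sequencing does not separate methylcytosine from hydroxymethylcytosine, so methylation here means their sum. These are measurements of methylation on the genes, not of their expression.

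The libraries differed in depth. At the CpGs of the 9 genes the median was 38 reads in WT, 20 in Dnmt3a KO and 13 in Dnmt TKO. Methylated reads made up 18.1% of 39915 reads in WT (95% Wilson interval 17.7 to 18.5), 13.6% of 16034 in Dnmt3a KO (13.0 to 14.1) and 0.0655% of 4579 in Dnmt TKO (0.0223 to 0.192). Over all CpGs of each library the corresponding shares were 17.5%, 12.8% and 0.0931%. Among genes that mark ES cells, promoters were unmethylated in WT at Pou5f1 (0% over 7 CpGs), Sox2 (0.0652% over 52), Klf4 (0.0940% over 102), Zfp42 (1.21% over 9) and Tdgf1 (0.446% over 16). The exception was Esrrb at 60.6% over 7 CpGs, and the Nanog promoter had no covered CpG. Methylation alone does not identify a cell type.

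Within the genes, CpGs were divided by position. A promoter is the 1000 bp on either side of the gene start, and an internal promoter the same around a protein-coding transcript start more than 1000 bp downstream. The body is the remainder of the gene, and the upstream part reaches from 5000 to 1000 bp before the start. In WT, methylation was low at most promoters and higher in bodies. Over the 500 CpGs shared with Dnmt3a KO, the mean of the percentages was 0.535% at 224 promoter CpGs, 1.81% at 68 internal promoter CpGs and 39.2% at 204 body CpGs. In Dnmt3a KO these means were 0.208%, 0.401% and 34.0%. The differences, Dnmt3a KO minus WT, were -0.326 percentage points at promoters (95% Newcombe interval of the pooled reads, placed around the difference, -0.437 to -0.193), -1.41 at internal promoters (-1.81 to -0.946) and -5.23 in bodies (-6.82 to -3.61). These widths weight CpGs by depth and the differences do not. With reads pooled, all 3 differences fell outside the intervals. The promoter value came mostly from 2 Dnmt3l CpGs (-31.7). At the other covered promoters the differences lay between -0.639 (Tet3) and 0.0483 (Tdg), each with an interval that included 0. The internal promoter value rests on few methylated CpGs in Dnmt3l and Tet1 and lay between -9.27 and -0.0210 under other settings. Of the 68 internal promoter CpGs, 61 lie in Dnmt3a (0.0138% in WT), most of them close to its gene start. The 5 in Dnmt3l averaged 6.10% and the 2 in Tet1 46.0% in WT, so the low mean is mainly that of Dnmt3a. Coding CpGs carried most of the methylation, with a mean of 70.5% in WT and 63.2% in Dnmt3a KO over 85 CpGs. The means over 286 intronic CpGs were 6.46% and 4.54%. These intronic CpGs include large unmethylated blocks, such as 46 promoter CpGs of Uhrf1 (0.0867% in WT) and 39 CpGs of Tet1 (0.161%). The contrast therefore does not separate exons and introns from position in the gene. Other intronic stretches ranged in WT from 0% (5 Dnmt3a CpGs, 65808 to 65911 bp from the gene start) to 82.9% (3 Dnmt3a CpGs, 89909 to 89935 bp). Dnmt TKO was near 0 throughout.

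**Figure D1:**
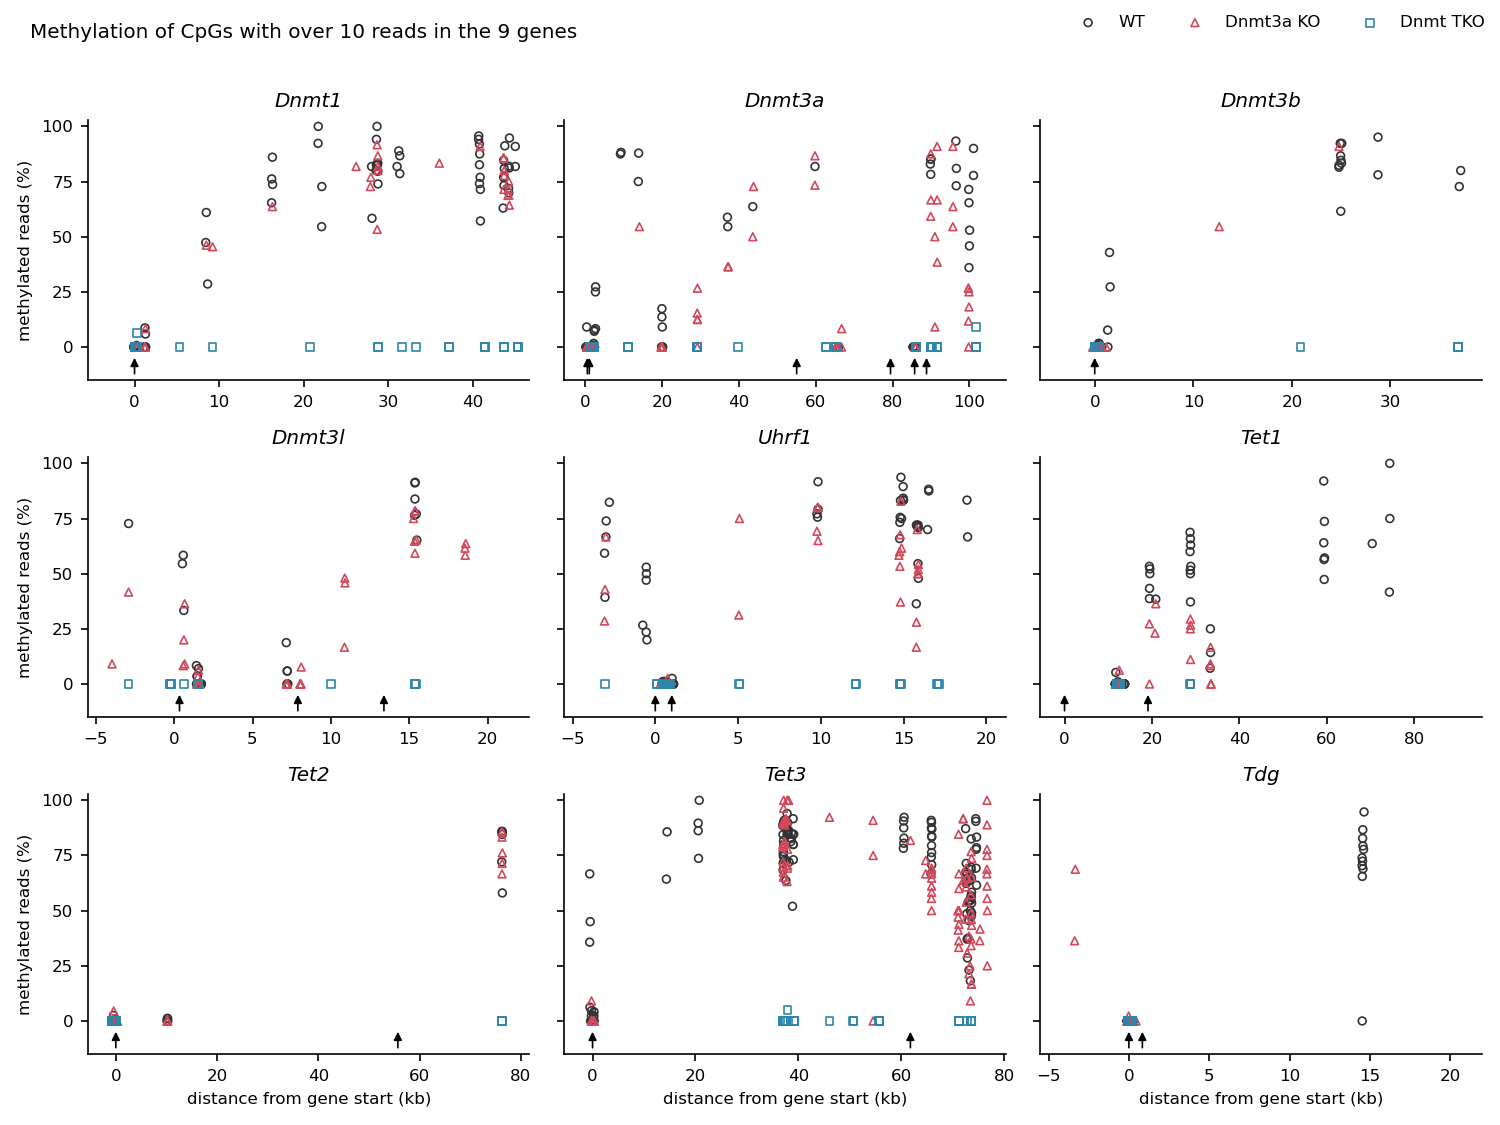
Percentage of methylated reads (vertical axis) at every CpG with over 10 reads against the distance from the gene start in kb (horizontal axis), for the 9 genes, with WT as circles, Dnmt3a KO as triangles and Dnmt TKO as squares. Arrows mark starts of protein-coding transcripts. CpGs at most gene starts lie near 0% in all libraries, many body CpGs of WT and Dnmt3a KO lie above 50%, and no CpG of Dnmt TKO exceeds 9.09%.

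**Figure D2:**
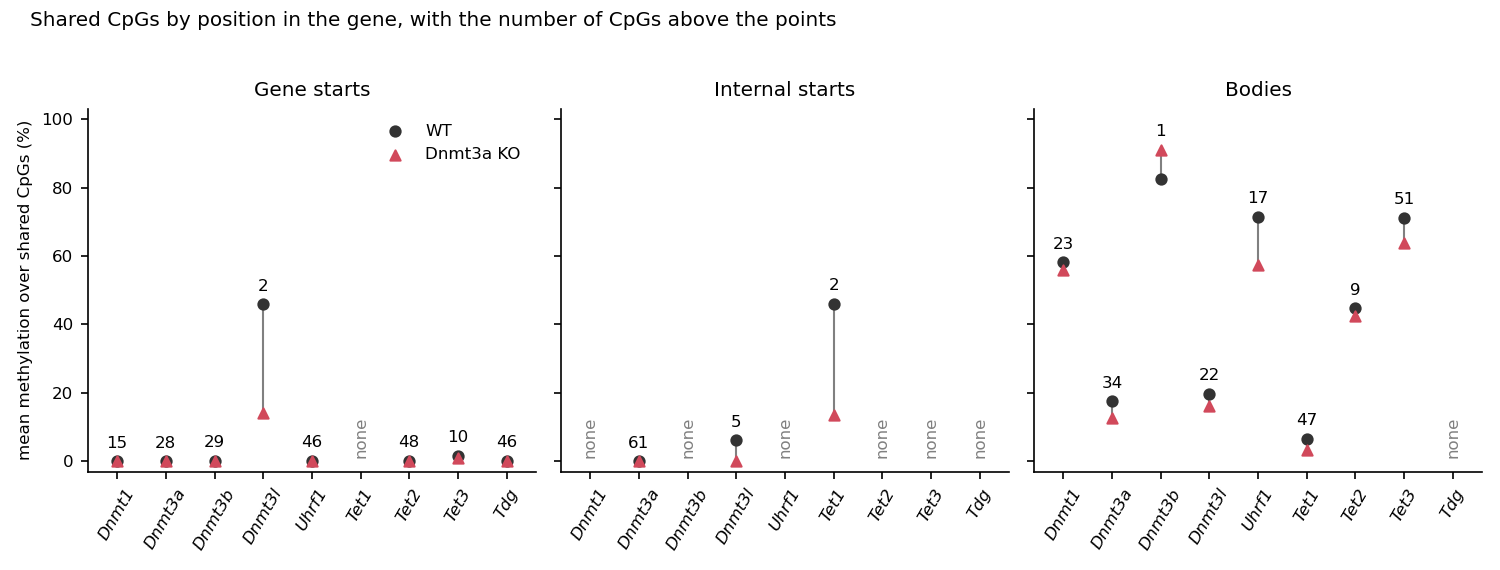
Mean methylation in percent (vertical axis) of the CpGs shared by WT (circles) and Dnmt3a KO (triangles) for each gene (horizontal axis), separately for gene starts, internal starts and bodies, with the number of CpGs above each pair. Single libraries are shown, without error bars. Gene starts are at or below 1.55% in both libraries except for Dnmt3l, which rests on 2 CpGs, and the widest gap over a body of more than 5 CpGs is that of Uhrf1, from 71.5% to 57.5%.

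Dnmt1, the maintenance methyltransferase (chr9:20711650-20757317, minus strand), had an unmethylated start and a highly methylated body. Its promoter held 1 methylated read among 2300 over 28 CpGs in WT, 0 among 602 over 15 CpGs in Dnmt3a KO, which allows a share of up to 0.498%, and 1 among 277 over 20 CpGs in Dnmt TKO. Levels were also low at 6 shared intronic CpGs between 1205 and 1293 bp from the start, which averaged 2.43% in WT and 1.39% in Dnmt3a KO. The coding stretches farther in were methylated in both libraries. In exon 36 of 39, 5 CpGs averaged 78.5% in WT and 80.1% in Dnmt3a KO (difference 1.64 percentage points, 95% interval -9.35 to 10.8). In exon 37, 4 CpGs averaged 76.2% and 69.9% (-6.34, -19.8 to 5.24), and across exon 17 and the intron before it 5 CpGs averaged 80.4% and 78.7% (-1.74, -13.8 to 8.04). Each of these intervals includes 0. Over all 23 shared body CpGs the means were 58.2% and 55.8% (-2.41, -8.36 to 3.56). When reads were pooled in place of averaging CpGs, the body difference was -15.5 percentage points, where CpGs count by their depth. Over CpGs with at least 10 reads the mean difference was 0.70, and over those shared by all 3 libraries 2.12, so the sign of the Dnmt1 body difference was not stable. The mean over CpGs is used here, since it gives the same CpGs the same weight in both libraries.

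Uhrf1, the partner that brings DNMT1 to hemimethylated DNA (chr17:56442744-56462909, plus strand), had the largest body difference among the members with at least 5 shared body CpGs. The 17 shared CpGs of its body averaged 71.5% in WT against 57.5% in the KO, which is -13.99 percentage points apart (95% interval -19.4 to -8.64). Among all protein-coding gene bodies with at least 5 shared CpGs, 35.0% had a larger decrease. Its promoter was nearly unmethylated, at 0.0867% in WT and 0.0543% in Dnmt3a KO over 46 shared CpGs. Upstream of this unmethylated block, 6 CpGs between positions -757 and -508 bp relative to the start had 20 to 52.9% in WT, with 15 to 17 reads each. Dnmt3a KO and Dnmt TKO had no CpG with over 10 reads there, so this border could not be compared. Farther out, where the neighbouring gene Arrdc5 lies, 3 shared CpGs averaged 55.1% and 46.0% (-9.04, -26.9 to 9.77).

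The Uhrf1 stretch with the largest decrease lay across the 3′ end of exon 12 of 17 and the intron that follows it. A stretch is a run of at least 3 shared CpGs with no gap over 300 bp. Per gene, the stretch with the largest decrease is shown if that decrease was at least 10 percentage points. Its interval and its count of lower CpGs come from the reads it was chosen on. They therefore lean toward a decrease and are no separate support for one. The Uhrf1 stretch also holds the CpG with the lowest adjusted p of all 9 genes. CpGs measured in both libraries are in capitals (mm9, plus strand, chr17:56457500-56457619).
Uhrf1 exon 12 stretch: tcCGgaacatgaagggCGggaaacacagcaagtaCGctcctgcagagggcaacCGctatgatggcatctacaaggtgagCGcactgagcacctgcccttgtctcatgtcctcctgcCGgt
Its 6 CpGs averaged 77.8% in WT and 60.4% in Dnmt3a KO (-17.3, -25.7 to -9.23), and all 6 were lower in Dnmt3a KO. The observed decreases varied in size within these few bases, and whether they differ between the CpGs was not tested. The fourth CpG, 14809 bp from the start, was methylated in 79 of 95 reads in WT (83.2%) and in 13 of 35 in Dnmt3a KO (37.1%), and passed the test described below (Fisher's exact test, Benjamini-Hochberg adjusted p = 0.000536). The CpG 26 bp further on, the fifth, had 89 of 95 reads methylated in WT (93.7%) and 29 of 35 in Dnmt3a KO (82.9%), and did not. In Dnmt TKO, 4 CpGs of the stretch had 0 methylated among 70 reads. The next stretch, 7 CpGs in intron 13, averaged 60.7% in WT and 45.8% in Dnmt3a KO (-14.9, -23.1 to -6.53). It held the other Uhrf1 CpG that passed, 15773 bp from the start, with 49 of 68 reads methylated in WT (72.1%) and 7 of 25 in Dnmt3a KO (28.0%, Fisher's exact test, adjusted p = 0.0208).

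Dnmt3a, one of the 2 de novo methyltransferases and the gene disrupted in the KO (chr12:3806007-3914443, plus strand), would be the gene to check the genotype on. Both guides target exon 7, which is printed here for that reason, with every CpG in capitals (mm9, plus strand, chr12:3895543-3895758).
Dnmt3a exon 7: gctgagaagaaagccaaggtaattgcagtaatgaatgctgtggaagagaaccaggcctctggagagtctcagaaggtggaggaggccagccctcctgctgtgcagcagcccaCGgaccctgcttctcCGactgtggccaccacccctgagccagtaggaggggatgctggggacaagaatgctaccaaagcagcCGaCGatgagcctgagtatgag
This exon of 216 bases has 4 CpGs and no CCGG, and none of the 4 had over 10 reads in any library. The nearest covered CpG lay 55 bp from the exon in WT, where 34 of 41 reads were methylated (82.9%), and 158 bp from it in Dnmt3a KO and Dnmt TKO. These methylation data therefore give no check of the disruption.

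Just past exon 7, in intron 7, lay the Dnmt3a stretch with the largest decrease, which is also the stretch nearest to the guide targets. It is shown by the rule given for Uhrf1 (mm9, plus strand, chr12:3895914-3895945, CpGs in capitals).
Dnmt3a intron 7 stretch: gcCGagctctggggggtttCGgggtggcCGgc
Its 3 CpGs had 78.3%, 85.2% and 85.1% in WT and 59.3%, 87.5% and 66.7% in Dnmt3a KO. The mean difference was -11.7 percentage points (82.9% to 71.1%, 95% interval -24.6 to -0.608), with the middle CpG slightly higher in Dnmt3a KO, and no CpG passed the test. In Dnmt TKO, 2 of these CpGs had 0 methylated among 23 reads.

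Dnmt3a has several starts, and background knowledge holds that a long and a short isoform, DNMT3A1 and DNMT3A2, begin at different ones. The start of transcripts that encode 908 amino acids lay 1023 bp or more into the annotated gene, inside one unmethylated block with the gene start. The 83 shared CpGs within 1000 bp of these neighbouring starts averaged 0.0101% in WT and 0% in Dnmt3a KO. The internal start of transcripts that encode 689 amino acids lay 85721 bp from the gene start and was unmethylated as well. It had 0 methylated among 565 reads over 20 CpGs in WT, 0 among 151 reads over 7 CpGs in Dnmt3a KO and 0 among 64 reads over 4 CpGs in Dnmt TKO. Counts of 0 allow shares of up to 0.531%, 1.99% and 4.69%. Both starts were thus unmethylated or nearly so in the 3 libraries. Between them, 5 intronic CpGs at 19917 to 19969 bp averaged 6.21% in WT and 0% in Dnmt3a KO (-6.21, -12.3 to -0.964), and 5 at 65808 to 65911 bp were at 0% in both. Over the 34 shared body CpGs, which include part of the unmethylated block, the means were 17.6% and 12.6% (-4.94, -7.88 to -1.76). The 5 of them that averaged at least 50% over WT and Dnmt3a KO had 78.8% and 70.0% (-8.79, -19.7 to 1.07). Toward the 3′ end, the CpG 99874 bp from the start had 17 of 26 reads methylated in WT (65.4%) and 3 of 12 in Dnmt3a KO, a gap that did not pass the test at this depth.

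Dnmt3b, the other de novo methyltransferase (chr2:153475186-153513466, plus strand), was compared almost only at its start. Its promoter, which the gene 7530422B04Rik shares, had 0.137% in WT and 0% in Dnmt3a KO over 29 shared CpGs, with 0 methylated among 1038 reads in Dnmt3a KO and 0 among 169 in Dnmt TKO. The body was methylated in WT, at a mean of 66.8% over 16 CpGs, but 1 body CpG was shared. This CpG, 24779 bp from the start, had 28 of 34 reads methylated in WT (82.4%) and 10 of 11 in Dnmt3a KO (90.9%). With 11 reads in the KO, the interval of that difference ran from -21.6 to 26.1 percentage points.

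Dnmt3l, the catalytically inactive cofactor (chr10:77504692-77526367, plus strand), had the highest mean promoter methylation in WT of the members with covered promoter CpGs. That mean was 48.7%, on only 3 CpGs between 523 and 617 bp from the gene start. Single promoter CpGs of Uhrf1 and Tet3 reached 52.9% and 66.7% in WT, and the Tet1 promoter was not covered. A CpG in intron 1, 582 bp from the start, had 28 of 48 reads methylated in WT (58.3%) and 2 of 24 in Dnmt3a KO (8.33%), and passed Fisher's exact test (adjusted p = 0.00554). A CpG 35 bp further on had 16 of 48 (33.3%) and 5 of 25 (20.0%). These are the only 2 shared promoter CpGs of the gene, and their mean went from 45.8% in WT to 14.2% in Dnmt3a KO (-31.7, -43.9 to -16.0). In Dnmt TKO the promoter had 0 methylated among 63 reads over 5 CpGs, which allows a share of up to 4.76%. Farther in, CpGs were nearly unmethylated, and 17 shared ones between 1465 and 1629 bp from the start, where the neighbouring gene Aire overlaps, averaged 0.823% in WT and 0.564% in Dnmt3a KO. Around an internal start of the gene, 7895 bp from the gene start, 5 shared CpGs averaged 6.10% and 0% (-6.10, -13.3 to 0.289). Upstream, 1 shared CpG at position -2908 bp had 8 of 11 reads methylated in WT (72.7%), 5 of 12 in Dnmt3a KO (41.7%) and 0 of 14 in Dnmt TKO. The methylated body CpGs shared by WT and Dnmt3a KO lay in exon 12 of 14, while each library had others that the other did not cover. That stretch, the one with the largest decrease in the gene, is shown by the same rule, and all of its 5 CpGs were lower in Dnmt3a KO (mm9, plus strand, chr10:77520034-77520144, CpGs in capitals).
Dnmt3l exon 12 stretch: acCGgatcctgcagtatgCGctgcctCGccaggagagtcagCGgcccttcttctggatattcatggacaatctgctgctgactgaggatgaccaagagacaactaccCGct
The CpGs had between 76.5 and 91.4% in WT and between 59.3 and 78.6% in Dnmt3a KO. Their means were 84.0% and 69.2% (-14.8, -24.4 to -5.84), with single differences between -11.8 and -24.6 percentage points. In Dnmt TKO, 4 of them had 0 methylated among 60 reads. The whole body, 22 shared CpGs of which most lie in the unmethylated block, went from 19.7% to 16.2% (-3.56, -7.75 to 0.843). With reads pooled that difference was -12.0, and over each library's own CpGs, which are not the same ones, it was 9.61.

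**Figure D3:**
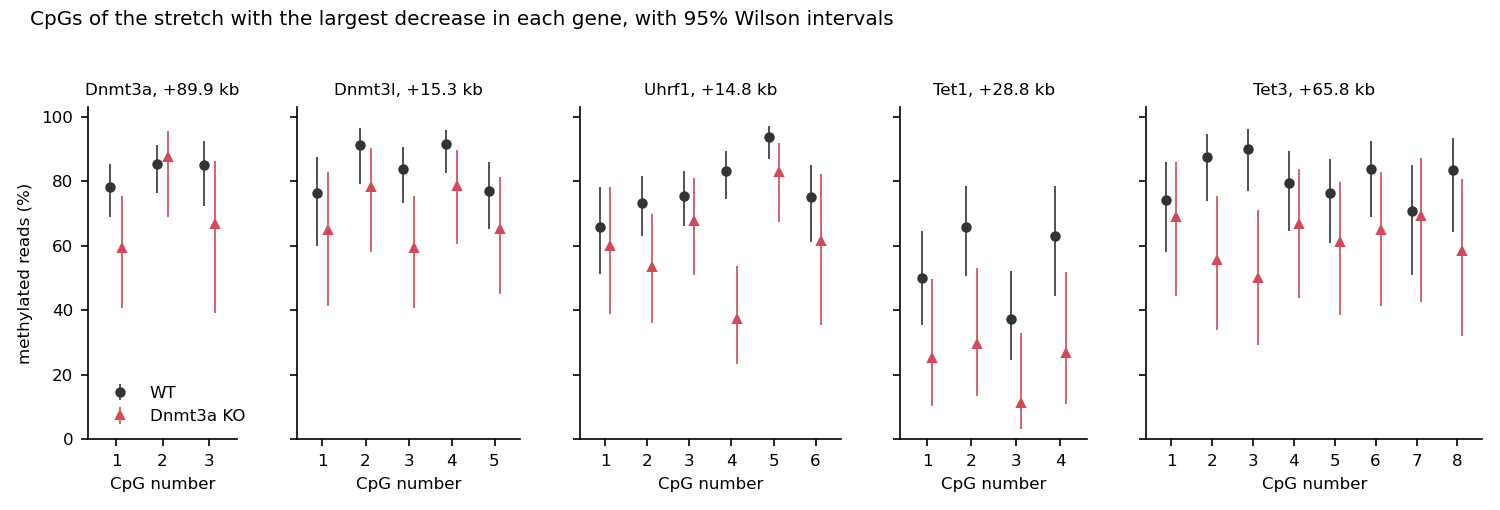
Percentage of methylated reads (vertical axis) at each CpG of the stretch with the largest decrease in 5 genes, numbered along the gene (horizontal axis), in WT (circles) and Dnmt3a KO (triangles). Bars are 95% Wilson intervals of the reads of 1 library. The stretches were chosen on these same values. In Uhrf1 the fourth CpG drops from 83.2% to 37.1% while its neighbours move less, and in Tet1 all 4 CpGs of Dnmt3a KO lie at or below 29.4% while those of WT lie at 37.2% or above.

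Tet1, an oxidase that is abundant in ES cells (chr10:62267318-62361866, minus strand), held the stretch with the largest decrease of all, on few reads. No CpG within 1000 bp of its gene start was covered. Instead, an unmethylated block of 39 shared CpGs lay in intron 1, between 11654 and 12811 bp from the start, at 0.161% in WT and 0% in Dnmt3a KO, with 0 methylated among 434 reads at 30 CpGs in Dnmt TKO. The annotation used here has no protein-coding start in this block. Past it, methylation in WT was intermediate. At an internal protein-coding start, in exon 2 and 19104 bp from the gene start, 2 shared coding CpGs had 38.7% and 53.3% in WT and 0% and 27.3% in Dnmt3a KO. Their mean difference was -32.4 percentage points (46.0% to 13.6%, -47.6 to -9.38), on 11 reads per CpG in the KO. The stretch with the largest decrease, in intron 2, is shown by the same rule, and its decrease was the largest of all stretches compared (mm9, plus strand, which is antisense to the gene, chr10:62333004-62333065, CpGs in capitals).
Tet1 intron 2 stretch: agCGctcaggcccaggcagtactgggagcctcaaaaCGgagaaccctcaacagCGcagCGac
Its 4 CpGs averaged 54.0% in WT and 23.0% in Dnmt3a KO (-31.0, -42.4 to -17.1). In the direction of the gene they had 50%, 65.9%, 37.2% and 63.0% in WT with 27 to 43 reads, and 11.1 to 29.4% in Dnmt3a KO with 15 to 18 reads. All 4 were lower in Dnmt3a KO. None passed the adjusted test at this depth. In Dnmt TKO, 3 of them had 0 methylated among 37 reads. Another 3 intronic CpGs, 33320 to 33421 bp from the start, were low in both libraries, at 15.5% and 11.4% (-4.11, -13.6 to 11.2). Farther into the gene only WT was covered, with 41.7 to 100% at 10 CpGs from 59325 bp on. The body as a whole went from 6.54% to 3.46% over 47 shared CpGs (-3.08, -4.00 to -2.00), of which the unmethylated block holds most.

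Tet2, the second oxidase expressed in ES cells (chr3:133126643-133207354, minus strand), had the smallest body difference of the TET genes, from 44.7% to 42.6% over 9 shared CpGs (-2.11, -9.02 to 4.84). Its promoter had 0.0825% in WT and 0.0947% in Dnmt3a KO over 48 shared CpGs. A further 4 intronic CpGs, 10109 to 10233 bp from the start, averaged 0.566% and 0%. The last exon was methylated to 80.0% in WT and 76.7% in Dnmt3a KO over 5 coding CpGs (-3.35, -11.1 to 3.47), and 4 of these had 0 methylated among 52 reads in Dnmt TKO. Both intervals include 0, so no difference was detectable in Tet2 at this depth.

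Tet3, the oxidase best known from the oocyte and zygote (chr6:83312367-83391672, minus strand), had the most methylated CpGs of the 9 genes, with 44 of 61 shared CpGs at 50% or more in WT. Its 51 shared body CpGs averaged 71.1% in WT and 63.8% in Dnmt3a KO (-7.29, -10.4 to -4.19), and the stretches differed in how far they were apart. In exon 3 of 11, 14 coding CpGs averaged 79.7% in WT and 82.1% in Dnmt3a KO (2.44, -2.59 to 7.22). Another 7 coding CpGs of exon 3 averaged 87.6% and 81.6% (-5.97, -13.5 to 0.384). In exon 7, by contrast, 8 coding CpGs averaged 80.7% and 61.8% (-18.9, -28.4 to -9.53), all 8 lower in Dnmt3a KO. The exon 7 stretch is shown because it had the largest decrease in the gene (mm9, plus strand, antisense to the gene, chr6:83325748-83325839, CpGs in capitals).
Tet3 exon 7 stretch: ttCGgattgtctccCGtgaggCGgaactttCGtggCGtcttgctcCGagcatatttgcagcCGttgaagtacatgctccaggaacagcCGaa
The WT percentages of these CpGs lay between 70.8 and 90 and those of Dnmt3a KO between 50 and 69.2. The CpG with the largest difference had 36 of 40 reads methylated in WT and 9 of 18 in Dnmt3a KO, with an adjusted p of 0.0746 by Fisher's exact test, which misses the threshold. The last exon, exon 11, was less methylated in both libraries. Its distal stretch, 14 CpGs over the end of the coding sequence and the start of the 3′ UTR, averaged 53.4% and 41.7% (-11.7, -17.2 to -6.10), and its proximal stretch, 8 coding CpGs, 63.0% and 56.9% (-6.15, -15.7 to 3.22). The distal stretch held the single Tet3 CpG that passed, 73626 bp from the start, with 56 of 118 reads methylated in WT (47.5%) and 7 of 42 in Dnmt3a KO (16.7%, Fisher's exact test, adjusted p = 0.0312). In the same stretch, 4 of 14 CpGs had higher percentages in Dnmt3a KO, and none of these passed. At the gene start, which the gene B230319C09Rik shares, 10 shared CpGs averaged 1.55% and 0.909%. On the upstream side, CpGs at positions -456, -499, -543 and -557 bp had 45.0%, 6.25%, 66.7% and 35.7% in WT with 14 to 20 reads, so that 1 of the 4 was low. The other libraries had no CpG with over 10 reads there.

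Tdg, the glycosylase that removes oxidized methylcytosine (chr10:82092573-82113544, plus strand), could be compared only at its promoter. Its 46 shared CpGs had 0 methylated among 3749 reads in WT, which allows a share of up to 0.0800%, and 1 methylated among 1795 in Dnmt3a KO. In Dnmt TKO, 25 promoter CpGs had 0 among 350 reads. The body was covered in WT alone, where 10 of 11 CpGs from 14509 to 14633 bp had between 65.5 and 94.7%. The remaining CpG, 14518 bp from the start, had 0 methylated among 28 reads, between neighbours 5 and 6 bp away at 70.4% and 65.5%.

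The CpGs were then tested one by one, to ask which differed beyond counting error. Fisher's exact test (two-sided) compared methylated and unmethylated reads of WT and Dnmt3a KO at all 631561 shared CpGs, and a CpG was called at a Benjamini-Hochberg adjusted p under 0.05 and a difference of at least 20 percentage points. Of the 500 CpGs of the 9 genes, 4 were lower in Dnmt3a KO, or 0.8%, against 1.64% of all shared CpGs. They are the CpG in Dnmt3l intron 1, both Uhrf1 CpGs and the CpG in the last exon of Tet3. None was higher, against 0.0304% of all shared CpGs. At an unadjusted p under 0.05 by the same test, in either direction, there were 21 of the 500 (4.2%), of which 10 lie in Tet3, against 7.15% of all shared CpGs. In WT, 383 of the 500 had under 20%, which leaves no room for a decrease of 20 points. Of the 102 with at least 50% in WT, 3 were called, or 2.94%, against 6.87% of all such CpGs. The members' shares were below those of the genome in each of these counts, and the called CpGs lie in 3 of the 9 genes. The counts are small and partly hold the same CpGs, and whether the shares differ was not tested. By sign alone, 116 of the 500 were lower in Dnmt3a KO (23.2%), 41 higher (8.2%) and 343 equal (68.6%), where all shared CpGs had 33.2%, 8.23% and 58.6%.

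**Figure D4:**
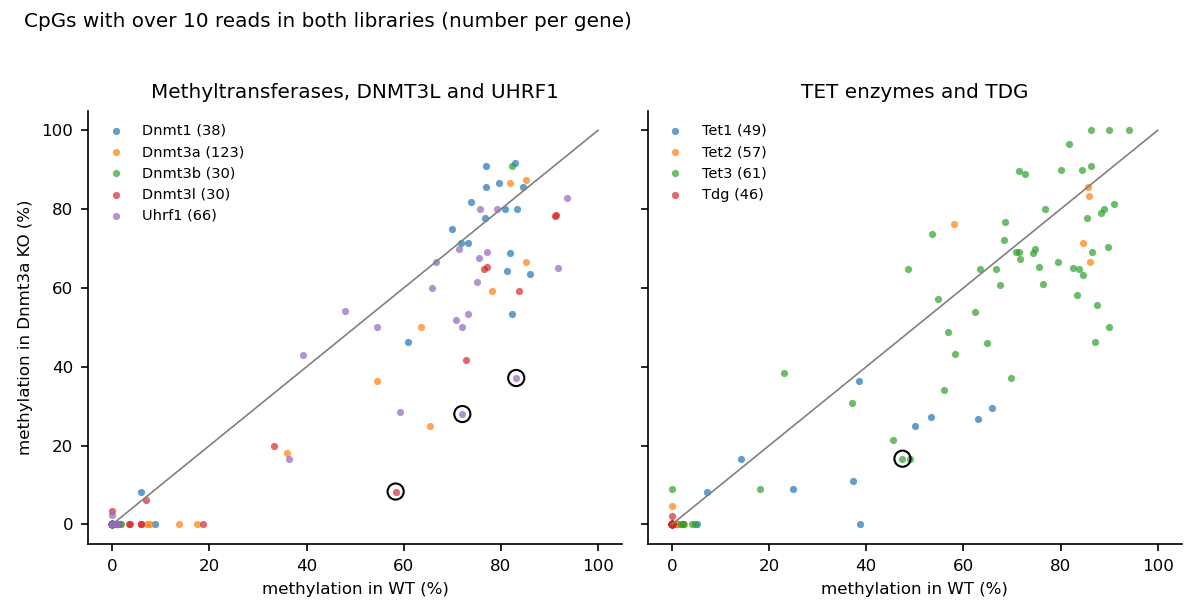
Methylation in percent in Dnmt3a KO (vertical axis) against WT (horizontal axis) for each of the 500 shared CpGs, with Dnmt1, Dnmt3a, Dnmt3b, Dnmt3l and Uhrf1 on the left and Tet1, Tet2, Tet3 and Tdg on the right. The diagonal marks equal values and black rings the 4 called CpGs. Most CpGs sit at the origin, and among the others 116 lie below the diagonal and 41 above it.

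Gene bodies were compared by the mean of their CpG percentages, with each CpG given equal weight. Of the 7 members with at least 5 shared body CpGs, 1 was lower in Dnmt3a KO by at least 10 percentage points, namely Uhrf1, against 51.6% of 6832 protein-coding gene bodies. With reads pooled in place of averaging CpGs there were 3, Dnmt1, Dnmt3l and Uhrf1. The share of all bodies with reads pooled is not given here, so this count is not set against the 51.6%. All 7 were lower by some amount in the averages, though the sign for Dnmt1 turned as given above. Their median difference was -3.56 percentage points, against -10.4 over all bodies. The quartiles over all bodies were -17.0 and -4.22, and the WT medians were 44.7% for the members and 59.0% for all. Restricted to CpGs that averaged at least 50% over WT and Dnmt3a KO, 2 of 6 members were lower by at least 10 points, Dnmt3l and Uhrf1, against 61.3% of 4324 bodies. The medians were then -7.38 for the members and -12.2 for all bodies, from WT medians of 78.3% and 79.5%. On these CpGs the members ordered as Dnmt3l (-14.8, -24.4 to -5.84), Uhrf1 (-13.6, -19.1 to -8.23), Dnmt3a (-8.79, -19.7 to 1.07), Tet3 (-5.97, -9.22 to -2.81), Tet2 (-3.35, -11.1 to 3.47) and Dnmt1 (-2.89, -9.26 to 2.92). Tet1 is missing from this order because none of its shared body CpGs averaged 50%. The limit uses the Dnmt3a KO value too, and so leaves out CpGs such as the one in Tet1 intron 2 that had 65.9% in WT and 29.4% in Dnmt3a KO. Intervals of neighbours in this order overlap throughout. Those of Uhrf1 and Tet3 overlap only between -9.22 and -8.23. Over all 93 such body CpGs of the members the means were 76.9% and 69.8% (-7.06, -9.34 to -4.82). The mean difference over all 109668 shared CpGs of the genome that averaged at least 50%, inside or outside gene bodies, was -12.2. Whether the members as a group differ from other genes was not tested.

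**Figure D5:**
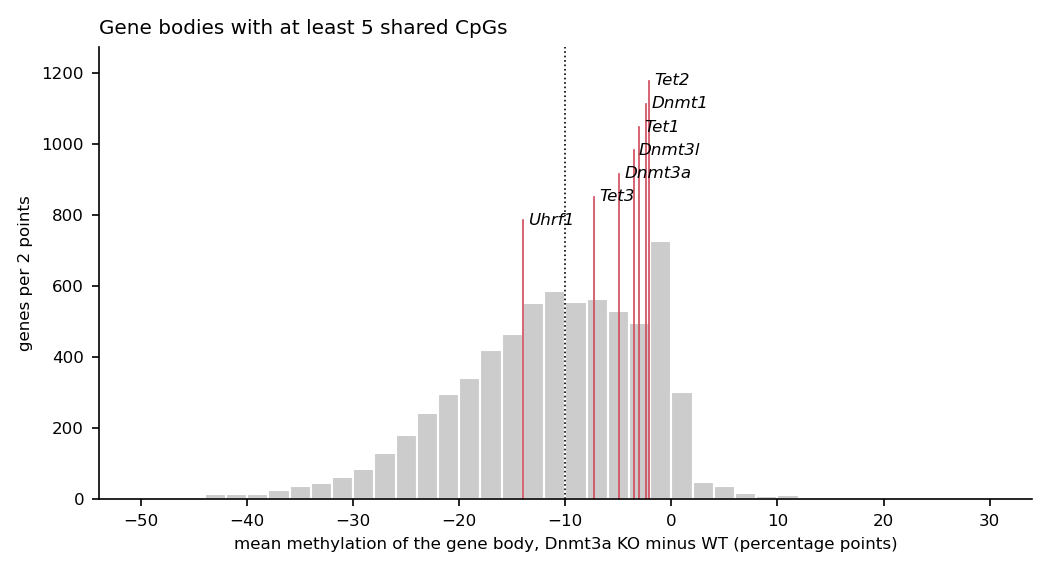
Number of protein-coding gene bodies (vertical axis) by the difference in mean methylation, Dnmt3a KO minus WT, in percentage points (horizontal axis), in bars of 2 points, for bodies with at least 5 shared CpGs. Red lines mark the 7 members and the dotted line -10 points. Uhrf1 at -13.99 lies left of the dotted line, and Tet3, Dnmt3a, Dnmt3l, Tet1, Dnmt1 and Tet2 lie between -7.29 and -2.11.

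Dnmt TKO gave the level without methyltransferases. By the same test and threshold, 49 of the 207 CpGs of the 9 genes shared with WT were lower in Dnmt TKO, or 23.7%, against 19.4% of all shared CpGs. All 46 that had at least 50% in WT were among them, as were 99.5% of all such CpGs of the genome. Tet3 contributed 26, which is every Tet3 CpG tested, Dnmt1 6, Dnmt3l 5, Uhrf1 and Tet2 4 each, and Dnmt3a and Tet1 2 each. In all, 3 methylated reads remained at the 315 CpGs, 1 each in the Dnmt1 promoter, in a coding CpG of Dnmt3a 101688 bp from the start and in a coding CpG of Tet3 that had 85.5% in WT. The 6 other genes had 0 methylated reads, which allows shares of up to 0.426% for Uhrf1, 0.532% for Tet2, 0.637% for Tet1, 0.857% for Tdg, 1.21% for Dnmt3b and 1.51% for Dnmt3l. At the 79 body CpGs covered in all 3 libraries the means were 44.7% in WT, 39.4% in Dnmt3a KO and 0.0633% in Dnmt TKO.

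Genes that act with these enzymes were counted over the whole gene window in the same way, with a difference of at least 10 percentage points over at least 5 shared CpGs. Over all 14505 genes measured, 13.7% were lower in Dnmt3a KO by this rule and 0.159% higher, and the median difference was -1.51. None of the 9 members was, and their median was -1.48. Among partners of maintenance (Uhrf2, Usp7, Pcna, Hells, Lig1, Cdca7 and Zbtb24), 0 of 6 measured were lower, with differences from -1.24 in Usp7 to 0.116 in Lig1. Among readers of methylated CpGs, 2 of 8 were lower, most so Zbtb38 (-12.8), with Zbtb4 (-10.9), while Mbd3 differed by 0.775. Among repair and demethylation cofactors, 2 of 11 were lower, Neil1 and Smug1 (-16.7). Neil1, a glycosylase of base excision repair, had the largest difference of the lists (-31.9), on only 7 shared CpGs. At the other end of this list was Apex1 (0.688), with 44 shared CpGs. Among recruiters and protectors of methylation, 1 of 7 was lower, Zfp57 (-11.6), which binds methylated imprinting control regions, and Trim28, its partner, differed by 0.0488. No gene of the 4 lists was higher by 10 points.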

How the data were processed

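RRBS of WT, Dnmt3a KO and Dnmt TKO ES cells is given as 1 table a genotype, called a library here. Per the labels, separate preparations were made for the 2 fragment sizes, and whether they were pooled is not given in the sources used here. The submitters' processing notes name Trim Galore, Bowtie and mm9. The study's methods state that reads were filtered for quality and adaptors, aligned with Bowtie (unique hits, bisulfite reads through QuasR) and cleared of PCR duplicates, and that CpGs at known sequence variants were removed. They do not state these steps for RRBS in particular. The deposited tables give, per CpG, the count of all reads and the count of methylated reads, made by the authors with a minimum of 10 reads in each file. They also give the methylated fraction computed by the authors from these counts, which was not used here. The authors kept CpGs over 20 reads for RRBS, and over 10 is used here so that more CpGs of the 9 genes remain, with over 20 as an alternative.

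CpGs were assigned to genes with GENCODE vM1 coordinates. Gene levels are means of CpG percentages. Single CpGs were compared with Fisher's exact test (two-sided, Benjamini-Hochberg adjusted over all shared CpGs), tested on simulated data before use. Shares carry Wilson intervals and differences Newcombe intervals, both at 95%, and a count of 0 allows a share of up to 3 reads of the total. The Newcombe widths come from pooled reads and were placed around the difference of the CpG means. The named items were all 9 genes, their promoters, the CpGs called, and per gene the stretch with the largest decrease if at least 10 percentage points. Members, gene lists and tests were chosen with earlier results of these data known. Alternatives changed the read minimum, the weighting, the promoter width, the transcripts used, the CpGs compared and the thresholds. Tools were Python 3.11.15, numpy 2.4.6, pandas 2.3.3, scipy 1.17.1, numba 0.67.0, statsmodels 0.14.6 and matplotlib 3.10.9.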

Additional observations from a re-analysis of the deposited data

How the results depend on the processing

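No paired analysis was possible because each genotype has 1 library and the labels carry no replicate numbers. The differences over all 9 genes kept their direction under every alternative run. Of the body and promoter values of single genes, the Dnmt1 body turned to 0.70 (from 10 reads on) and 2.12 (CpGs of all 3 libraries), and over each library's own CpGs the Dnmt3l body turned to 9.61 and the 1-CpG Dnmt3b body difference to -18.3. The promoter differences of Tet2 and Uhrf1, both close to 0, also changed sign under some alternatives. Over CpGs of all 3 libraries, WT and Dnmt3a KO had 23.8% and 24.4% for the whole Dnmt1 window, 0.357% and 0% for that of Dnmt3b and 39.3% and 42.9% at the 1 CpG upstream of Uhrf1, each against the sign over shared CpGs. Over each library's own CpGs the whole Dnmt3l window had 17.6% and 18.6%, also against it. The upstream parts had no shared CpG over 20 reads, so that alternative gave no value. With an adjusted p under 0.01, 2 CpGs of the 9 genes were lower in Dnmt3a KO, against 4, and with over 20 reads 10 of 22 were lower in Dnmt TKO, against 49 of 207. The shares over all shared CpGs at these settings are not given here, so neither count is set against the genome. Over 20 reads the share of methylated reads in Dnmt TKO was 0% (Wilson upper limit 0.702%). The promoter difference of -0.326 percentage points became -0.182 with reads pooled, -2.36 with CpGs within 100 bp joined, -0.0735 with 500 bp on either side, -0.131 over CpGs shared by all 3 libraries and -1.72 over each library's own CpGs. The internal promoter difference of -1.41 became -0.0210 over 20 reads, -2.53 from 10 reads on, -0.740 with reads pooled, -6.44 with CpGs joined, -0.610 with 500 bp, -9.27 with 2000 bp, -3.91 with the starts of all transcripts and -0.0560 over CpGs shared by all 3 libraries. It was -7.33 when starts within 2000 bp of the gene start counted with the promoter, an alternative chosen after seeing the data. The body difference of -5.23 became -8.12 with reads pooled and -11.8 over each library's own CpGs, and -7.06 over CpGs averaging at least 50%, the last chosen after seeing the data. In place of 1 gene body lower by 10 points there were 2 at 5 points (Tet3 and Uhrf1), 0 at 20 points, 3 with reads pooled (Dnmt1, Dnmt3l and Uhrf1) and 2 over CpGs averaging at least 50% (Dnmt3l and Uhrf1). Only the last of these settings has its share of all gene bodies given above (61.3%). The other counts are therefore not set against the genome. The cause of these changes was not tested.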
